A study of Homo sapiens with 8 samples.

Results

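S-phase and mitosis genes were followed in UM-RC-2 cells, an established line of clear cell renal cell carcinoma, as a readout of proliferation after VHL was put back. The 40 genes were chosen by symbol, out of 43682 symbols counted, and each of the 40 was found and passed the filter on low counts. They comprise 19 genes of DNA replication, 4 regulators of S-phase entry, 16 genes of mitosis and MKI67, which encodes the Ki-67 antigen of dividing cells. The series compared cells made to express VHL with cells made to express a construct named VEC in the labels. Both kinds of cell were made by lentiviral infection and selected in blasticidin at 10 µg/ml, and both carry the VHL change p.Arg82Pro of this line per the labels. RNA-seq gave 2 VEC and 2 VHL libraries. The replicate 1 libraries are labelled total RNA and the replicate 2 libraries polyA RNA. Whether the infected cells were clones or pools, and whether the replicates were separate cultures, is not given in the sources used here. The p-values therefore measure a spread between these libraries, shared across genes, which may be technical.

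Cells copy their DNA in S phase and separate the copies in mitosis, and the genes for these phases are switched on in turn in each division. Replication genes are controlled largely by E2F factors, which the retinoblastoma family of pocket proteins holds in check, and mitotic genes by the B-MYB and FOXM1 programme acting later in the cycle. VHL is a tumour suppressor whose protein targets hypoxia-inducible factors for destruction when oxygen is present. In bulk RNA, fewer cells in a phase and less RNA per cell cannot be told apart.

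The libraries differed more by replicate number than by group, so VHL was compared with VEC within each replicate number, and the number was a blocking term of the fit (edgeR's quasi-likelihood test, called here the blocked fit). Library totals ran from 16230291 to 50027348 counts, and both replicate 2 libraries were the deeper ones. Clustered histone genes, whose transcripts mostly lack a poly(A) tail, took 0.5% (VEC) and 0.427% (VHL) of counts in replicate 1. Their share was 0.0119% and 0.00943% in replicate 2. Levels are in CPM, counts per 1e6 of the TMM-scaled library total. VHL itself was at 37.1 (VEC) and 146 CPM (VHL) in replicate 1 and at 88.9 and 151 CPM in replicate 2, with a blocked log2 change of 1.36 ± 0.23 (SE, edgeR adjusted p = 4.63e-07). CA9, a target of hypoxia-inducible factors, changed by -5.45 ± 0.29 (adjusted p = 2.04e-76). Of 8 renal tubule and carcinoma markers, 7 had over 10 counts in every library, and EPCAM had at most 2. The 4 endothelial markers were at 0 throughout, the 5 fibroblast markers summed to at most 0.429 per 1e6 raw counts, and the 5 leukocyte markers to between 13.6 and 40 on that scale, nearly all of it CD68. The role of these differences between replicates in the results below was not tested.

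None of the 40 genes passed the threshold of an adjusted p under 0.05 in the blocked fit, where 3.1% of the 24417 tested genes did (0.749% higher and 2.35% lower in VHL) and 4.2% of the abundant protein-coding genes described below. At an unadjusted p under 0.05 there were 4 members, against 12.5% of all tested genes: BUB1 and RRM2 on the higher side, GINS2 and TK1 on the lower. The 95% interval of the change excluded a doubling and a halving for 37 of the 40, the others being BUB1, TOP2A and GINS2. SEs of members lay between 0.21 and 0.36 on the log2 scale. There was 1 residual degree of freedom, and the median prior degrees of freedom were infinite, so these intervals rest on a spread shared across genes. Disagreement between the pairs of a member hardly entered its SE. AURKA had an SE of 0.23 with pair values of 0.11 and 0.08, and MKI67 of 0.24 with 0.52 and -0.02. The call depended on the tool: the Wald test of DESeq2 with the same block called 7 members, 6 of them higher in VHL, where it called 4.98% of all genes. Those 7 were BUB1, TOP2A, KIF11, CENPF, GINS1 and MCM6 on the higher side and GINS2 on the lower. Other blocked settings of edgeR called 0 to 2 members. There were 0 with no filter on low counts (1.95% of genes called), 1 with DESeq2 size factors (4.09%) and 1 with TMM on protein-coding genes (4.07%). There were 2 with protein-coding genes alone (7.17%) and 2 with at least 20 counts in every library (9.73%). Without the block, edgeR called 0 members and 0 genes, with 0 members and 22 genes at an unadjusted p under 0.05.

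**Figure D1:**
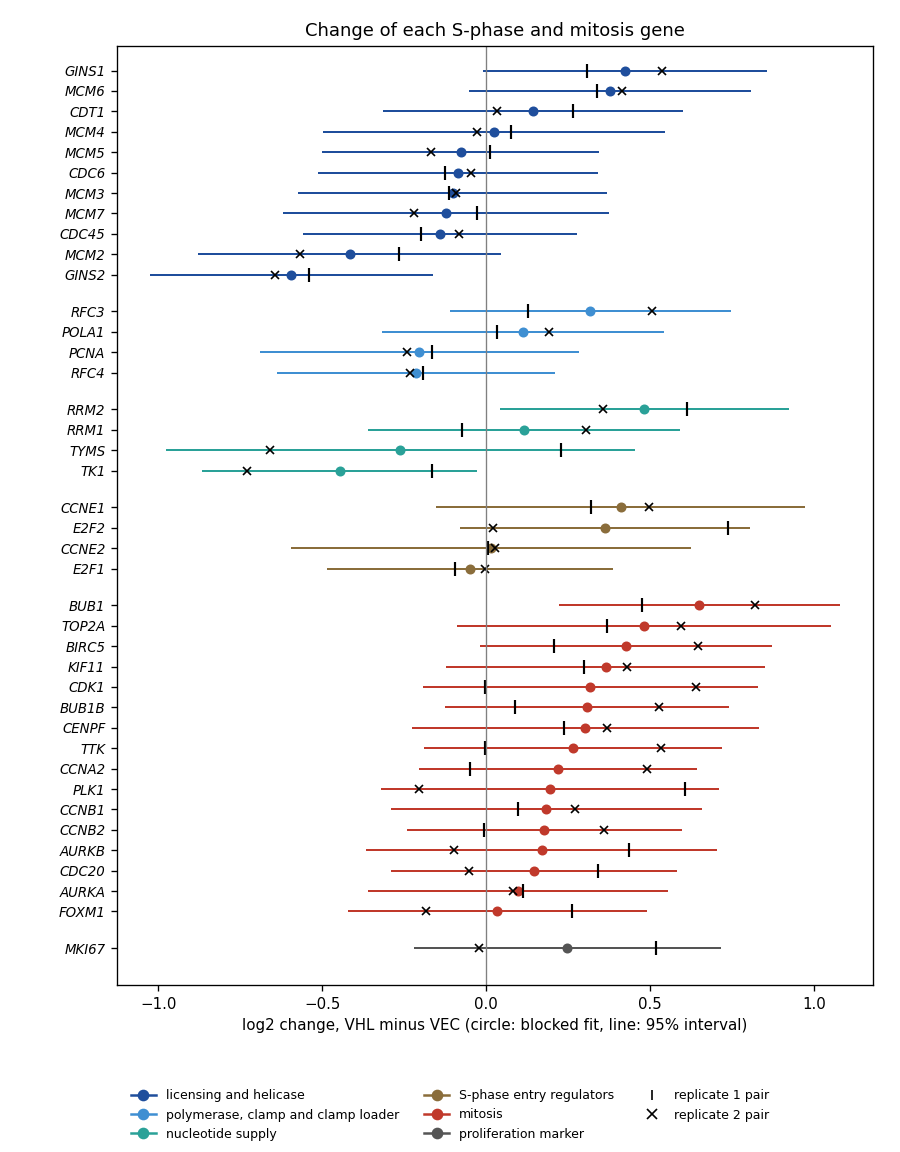
Log2 change of each of the 40 genes, VHL minus VEC, by role. Circles are the blocked fit with its 95% interval, upright ticks the replicate 1 pair and crosses the replicate 2 pair, and all 16 mitosis genes have circles to the right of 0 (FOXM1 lies at -0.0025 with DESeq2 size factors) while the 19 replication genes lie on both sides.

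In the blocked fit the mitosis members lay above 0 and the replication members on both sides of it. The 16 mitosis genes had log2 changes from 0.03 (FOXM1) to 0.65 (BUB1), all above 0, with a median of 0.24, and 15 of the 16 were above 0 when DESeq2 size factors were used in place of TMM. The 19 replication genes ran from -0.59 (GINS2) to 0.48 (RRM2) with a median of -0.09, 8 above 0 and 11 below. Over all tested genes the median was -0.03 and 47% were above 0. Among the 9175 protein-coding genes at a mean of at least 10 CPM, which are nearer to the members in abundance, the median was 0.04 and 55.2% were above 0. The mitosis median exceeded the replication median by 0.33 in the blocked fit, by 0.25 in the replicate 1 pair and by 0.48 in the replicate 2 pair. These are descriptions of 2 lists whose genes are not replicates, and no test was made of them.

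Summed over genes, the same difference was seen in the levels. The replication genes together took 4083 (VEC) and 3993 CPM (VHL) in replicate 1, and 1967 and 1991 CPM in replicate 2. The mitosis genes took 4724 and 5507 CPM in replicate 1, and 2189 and 3027 CPM in replicate 2. The ratio of the mitosis sum to the replication sum was thus 1.16 in VEC and 1.38 in VHL of replicate 1, and 1.11 and 1.52 in replicate 2, higher in VHL in both pairs. The sums are weighted towards abundant genes such as TOP2A and CENPF.

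The promoters of the 2 roles carried different short motifs. The motifs were not used to choose the genes. The 2 roles, however, largely follow the E2F control and the B-MYB and FOXM1 control described above. The difference is thus not independent of the roles, and it does not measure the response to VHL. RefSeq promoters on GRCh38.p14, 250 bases before to 50 after the start, matched 33 of the 40 genes. The 7 without a match were MCM4, MCM5, CCNE2 and the mitosis genes AURKA, FOXM1, TTK and BIRC5. The shares below thus cover 17 of the 19 replication genes and 12 of the 16 mitosis genes. E2F-type letters, taken as TTCCCGC, or TTGGCGC, or TTCGCGC, or TTGCCGC on either strand, were present in 15 of 17 replication promoters (88.2%) and 2 of 12 mitosis promoters (16.7%), against 17.0% of 15843 protein-coding promoters. Cell cycle homology region (CHR) letters, TTTGAA or TTTAAA on either strand, were present in 3 of 17 replication promoters (17.6%) and 9 of 12 mitosis promoters (75%), against 19.7%. A CCAAT box on either strand was present in 10 of 17 (58.8%) and 11 of 12 (91.7%), against 36.4%. TTGGCGC and a CCAAT box on the other strand can share letters, and E2F-type matches on opposite strands can overlap each other. A match is a run of letters, not a shown site of binding.

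The 250 bases before the start are shown for 4 members and for E2F3, 5′ to 3′ on the strand of the gene, with matches to these motifs in capitals. They were chosen to show a replication gene with a value on each side of 0 (MCM6 and GINS2), a mitosis promoter with CCAAT and CHR letters (KIF11), the member with the highest change (BUB1) and the E2F gene that passed the test below. MCM6 lies at chr2:135876444-135876693 on the minus strand, GINS2 at chr16:85688955-85689204 on the minus strand and KIF11 at chr10:92592880-92593129 on the plus strand. BUB1 lies at chr2:110678064-110678313 on the minus strand and E2F3 at chr6:20401629-20401878 on the plus strand.
MCM6: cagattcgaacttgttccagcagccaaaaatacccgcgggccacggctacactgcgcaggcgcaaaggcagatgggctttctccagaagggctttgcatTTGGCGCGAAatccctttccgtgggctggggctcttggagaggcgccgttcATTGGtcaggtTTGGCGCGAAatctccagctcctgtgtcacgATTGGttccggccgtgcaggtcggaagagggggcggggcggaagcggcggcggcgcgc
GINS2: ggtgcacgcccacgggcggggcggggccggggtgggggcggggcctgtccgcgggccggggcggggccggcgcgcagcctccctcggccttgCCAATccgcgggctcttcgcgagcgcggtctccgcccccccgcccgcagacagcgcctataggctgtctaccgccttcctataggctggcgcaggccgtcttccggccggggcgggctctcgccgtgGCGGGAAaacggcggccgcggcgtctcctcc
KIF11: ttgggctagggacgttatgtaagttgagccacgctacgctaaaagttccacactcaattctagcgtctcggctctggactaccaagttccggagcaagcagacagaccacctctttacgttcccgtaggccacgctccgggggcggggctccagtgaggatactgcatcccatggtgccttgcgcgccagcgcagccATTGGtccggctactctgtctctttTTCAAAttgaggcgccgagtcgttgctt
BUB1: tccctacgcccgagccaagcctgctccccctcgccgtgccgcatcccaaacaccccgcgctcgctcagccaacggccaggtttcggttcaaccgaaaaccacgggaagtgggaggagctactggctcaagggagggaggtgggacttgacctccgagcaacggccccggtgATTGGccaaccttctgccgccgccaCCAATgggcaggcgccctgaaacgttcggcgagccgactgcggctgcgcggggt
E2F3: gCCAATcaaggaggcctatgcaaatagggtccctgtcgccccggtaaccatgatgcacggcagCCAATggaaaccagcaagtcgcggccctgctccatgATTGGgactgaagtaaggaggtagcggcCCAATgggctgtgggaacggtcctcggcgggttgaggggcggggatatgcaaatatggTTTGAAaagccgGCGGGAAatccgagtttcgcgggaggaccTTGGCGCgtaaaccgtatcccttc
The MCM6 stretch holds 2 CCAAT boxes and 4 E2F-type matches in overlapping pairs, whereas KIF11 holds a CCAAT box and a CHR and no E2F-type letters. BUB1 holds 2 CCAAT boxes and neither of the other motifs.

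Licensing factors and the replicative helicase load and fire origins of replication. GINS1 and GINS2 are subunits of the same tetramer, which joins CDC45 and the MCM2 to MCM7 ring to form the active helicase, and their values lay on opposite sides of 0. GINS1 was at 114 (VEC) and 141 CPM (VHL) in replicate 1, against 78.5 and 114 CPM in replicate 2. Its blocked log2 change was 0.42 ± 0.22 (SE, edgeR adjusted p = 0.414). The groups did not overlap, though VEC replicate 1 (113.6 CPM) and VHL replicate 2 (114.02 CPM) nearly met. GINS2 was at 57.2 and 39.2 CPM in replicate 1 and at 30.3 and 19.4 CPM in replicate 2, lower in VHL within each pair, although the groups overlapped. Its change was -0.59 ± 0.22 (adjusted p = 0.129), with 95% bounds of -1.02 and -0.17. Leaving out libraries moved it between -1.17 and -0.049, without a change of sign. Both of these ends came from fits without the block, which compare unequal mixtures of the labelled RNA types. With protein-coding genes alone tested, or with genes of at least 20 counts in every library, GINS2 was called (adjusted p = 0.0350 and 0.0320, edgeR). The difference between GINS1 and GINS2 was not itself tested.

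Subunits of the MCM ring, which unwinds DNA, also spread on both sides of 0. MCM6 was at 80.9 (VEC) and 102 CPM (VHL) in replicate 1, against 102 and 136 CPM in replicate 2. The groups did not overlap, VHL replicate 1 (102.2 CPM) lying just above VEC replicate 2 (101.7 CPM), and the change was 0.38 ± 0.22 (adjusted p = 0.515). MCM2 was at 357 and 297 CPM in replicate 1 and at 102 and 68.6 CPM in replicate 2, lower in VHL within each pair, with overlap between the groups. Its change was -0.42 ± 0.23 (adjusted p = 0.489). The other 7 licensing and helicase genes had changes between -0.14 (CDC45) and 0.14 (CDT1), MCM4 among them at 0.02, which was below 0 under other scalings. Of the 11, 3 were higher and 6 lower in VHL in both pairs, where 22.8% and 35.9% of all tested genes were. GINS1 and MCM6 were the only members whose groups did not overlap, 2 of 40 against 7.86% of all tested genes.

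PCNA, the sliding clamp of replicating polymerases, was at 432 (VEC) and 386 CPM (VHL) in replicate 1, against 282 and 238 CPM in replicate 2. It was lower in VHL within each pair, with overlapping groups, and its change was -0.20 ± 0.25 (adjusted p = 0.892). RFC3 and RFC4 are subunits of the clamp loader. RFC3 was at 110 and 120 CPM in replicate 1 and at 65.7 and 93.3 CPM in replicate 2 (change 0.32 ± 0.22, adjusted p = 0.644). RFC4 was at 127 and 111 CPM and at 46.8 and 39.8 CPM (change -0.21 ± 0.21, adjusted p = 0.839). POLA1, the catalytic subunit of the primase-linked polymerase, was at 150 and 153 CPM and at 50.4 and 57.6 CPM (change 0.11 ± 0.22, adjusted p = 0.958). All 4 kept their direction in both pairs, RFC3 and POLA1 higher and PCNA and RFC4 lower, and for each the groups overlapped.

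Enzymes of deoxynucleotide supply did not move as 1 group. RRM2, the regulated small subunit of ribonucleotide reductase, was at 68.3 (VEC) and 104 CPM (VHL) in replicate 1, against 150 and 192 CPM in replicate 2. It was higher in VHL within each pair, and its change was 0.48 ± 0.22 (adjusted p = 0.309), with 95% bounds of 0.05 and 0.92. RRM1, the large subunit, was at 377 and 359 CPM and at 164 and 202 CPM (change 0.12 ± 0.24, adjusted p = 0.961). TK1, the thymidine kinase of S phase, was at 87.5 and 78.1 CPM in replicate 1 and at 49.2 and 29.6 CPM in replicate 2 (change -0.45 ± 0.21, adjusted p = 0.334). Most of that difference was in the replicate 2 pair, at -0.73 against -0.16. TYMS, thymidylate synthase, had from 72 to 330 counts, the fewest of the 40 genes in each replicate 1 library, so it has the widest SE of the members. It stood at 3.28 (VEC) and 3.86 CPM (VHL), then at 7.24 and 4.55 CPM, with a pair 1 value of 0.23, a pair 2 value of -0.66 and a blocked change of -0.26 ± 0.36 (adjusted p = 0.922). For RRM1, RRM2, TK1 and TYMS the VEC and VHL groups overlapped.

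Regulators of S-phase entry are the E2F activators and the E cyclins, partners of CDK2. E2F1 was at 42.9 (VEC) and 40.1 CPM (VHL) in replicate 1, against 22.8 and 22.7 CPM in replicate 2 (change -0.05 ± 0.22, adjusted p = 0.990). E2F2 was at 14.5 and 24.2 CPM in replicate 1 but at 45.0 and 45.7 CPM in replicate 2, so its change of 0.36 ± 0.22 (adjusted p = 0.569) lay mostly in the replicate 1 pair. CCNE1 was at 14 and 17.4 CPM and at 5.55 and 7.86 CPM (change 0.41 ± 0.29, adjusted p = 0.657), higher in VHL in both pairs. CCNE2 was at 11.3 and 11.3 CPM and at 4.5 and 4.58 CPM (change 0.02 ± 0.31), and its sign turned under other scalings. Groups overlapped for all 4.

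**Figure D2:**
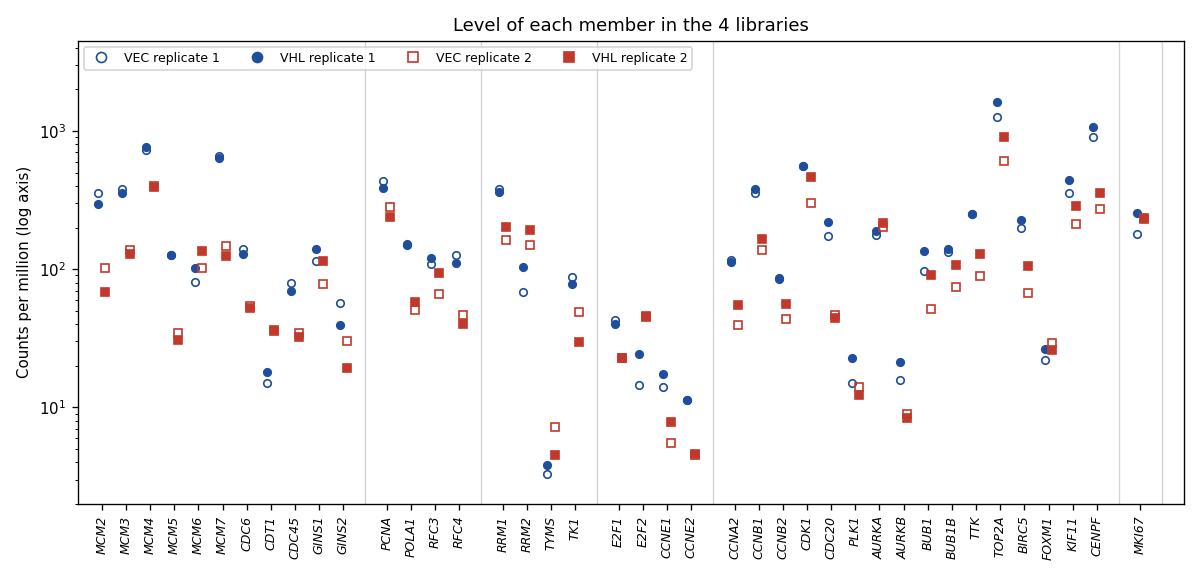
CPM on a log axis for each of the 40 genes in the 4 libraries, grouped by role in the order licensing, polymerase and clamp, nucleotide supply, S-phase entry, mitosis and MKI67. Open marks are VEC and filled marks VHL, circles replicate 1 and squares replicate 2, and 32 of the 40 genes have both squares below their circles of the same fill, as MCM7 (654 and 642 CPM against 146 and 125 CPM).

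The highest change of the 40 was that of a mitosis gene, BUB1, followed by RRM2 and TOP2A at 0.48 each. BUB1, a kinase of the spindle assembly checkpoint, was at 97.1 (VEC) and 135 CPM (VHL) in replicate 1, against 51.2 and 90.4 CPM in replicate 2. It was higher in VHL within each pair, by 0.48 and 0.82 on the log2 scale, while the groups overlapped. The blocked change was 0.65 ± 0.22, which is 1.57-fold with 95% bounds of 1.17 and 2.11, and did not pass (edgeR adjusted p = 0.0757). Leaving out libraries moved it between 0.25 and 1.14, without a change of sign. Both of these ends came from fits without the block, which compare unequal mixtures of the labelled RNA types. BUB1 was called with DESeq2 size factors (adjusted p = 0.0282), with TMM factors from protein-coding genes (0.0242), with protein-coding genes alone (0.00951), with genes of at least 20 counts in every library (0.00435, all edgeR) and by DESeq2 (0.000246). TOP2A, the topoisomerase that disentangles sister chromatids, was at 1259 and 1625 CPM in replicate 1 and at 603 and 910 CPM in replicate 2. It was higher in VHL within each pair, with overlapping groups, and its change was 0.48 ± 0.29 (adjusted p = 0.548).

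The lowest mitosis changes belonged to AURKA and FOXM1. AURKA, a centrosomal kinase, was at 176 (VEC) and 190 CPM (VHL) in replicate 1, against 202 and 214 CPM in replicate 2 (change 0.10 ± 0.23, adjusted p = 0.970). FOXM1, a transcription factor of mitotic genes, was at 21.9 and 26.3 CPM and at 29.3 and 25.8 CPM (change 0.03 ± 0.23, adjusted p = 0.992). The pairs disagreed in direction for FOXM1, and AURKA was slightly higher in VHL in both, with overlapping groups for each.

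The remaining 12 mitosis genes had blocked changes from 0.15 (CDC20) to 0.43 (BIRC5), and the groups overlapped for all of them. Pair values split them into 3 patterns, described after the values were seen. KIF11, a spindle motor, CENPF, a kinetochore protein, and BIRC5, the survivin of the chromosomal passenger complex, were higher in VHL in both pairs, with 0.30 and 0.43, 0.24 and 0.37, and 0.21 and 0.65 in that order of genes and pairs, and CCNB1 and BUB1B were likewise higher in both. CDK1, the mitotic kinase, had 562 and 560 CPM in replicate 1 but 299 and 466 CPM in replicate 2. CCNA2, CCNB2 and TTK likewise lay at or just below 0 in the first pair, at -0.05 or above, and between 0.36 and 0.53 in the second. PLK1, AURKB and CDC20 did the opposite, with 0.61, 0.43 and 0.34 in the first pair and -0.21, -0.10 and -0.05 in the second. In all, 8 of the 16 mitosis genes were higher in VHL in both pairs and 0 were lower in both, against 22.8% and 35.9% of all tested genes and 33.2% and 29.2% of the abundant protein-coding ones. Each pair alone had 12 of the 16 above 0, where 38% of all tested genes were so in the first pair and 48.3% in the second. Of the 9175 abundant protein-coding genes, 3978 were above 0 in the first pair and 5567 in the second.

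MKI67 followed the third of these patterns. It was at 179 (VEC) and 257 CPM (VHL) in replicate 1, against 234 and 231 CPM in replicate 2. The groups overlapped, the pairs gave 0.52 and -0.02, and the blocked value was 0.25 ± 0.24 (adjusted p = 0.820).

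**Figure D3:**
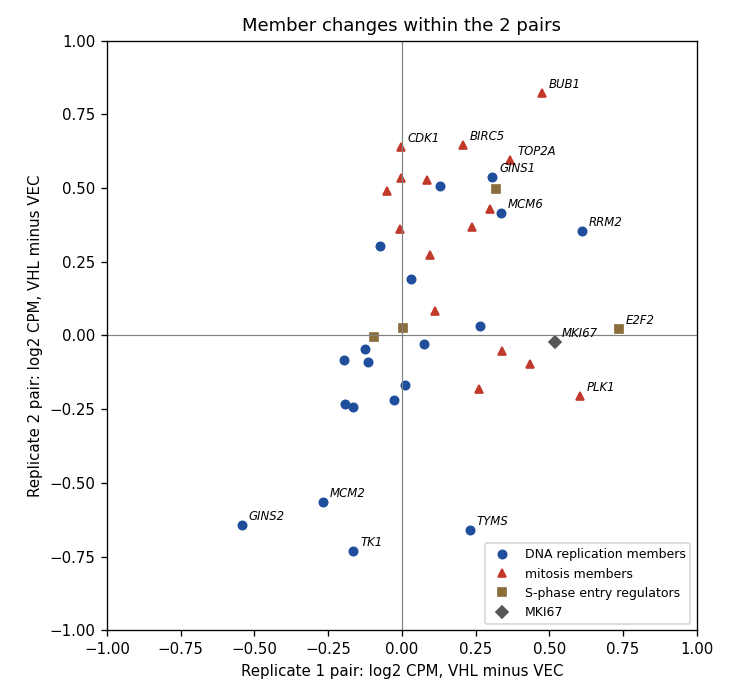
Change of each member in the replicate 1 pair (horizontal) against the replicate 2 pair (vertical), both as log2 CPM of VHL minus VEC, with symbols by role. BUB1 lies far into the upper right and GINS2 into the lower left, and 13 of the 40 genes, PLK1, TYMS and MKI67 among them, lie in quadrants where the pairs disagree.

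Other genes of the same processes, listed from general knowledge but with earlier results of these data known, were read in the same fit. Of 44 other replication genes 0 were called in the blocked edgeR fit and in each of the other edgeR settings. With the block, 2 of the 44 had an unadjusted p under 0.05 (12.5% of all tested genes), and DESeq2 called 1, ORC2 (4.98% of all genes). Their median was 0.09 with 28 above 0 (47% of all tested genes and 55.2% of the abundant protein-coding ones were), so it lay on the other side of 0 from that of the replication members. Of 70 other mitotic genes 0 were called in the blocked edgeR fit, where 3.1% of all tested genes were, with 7 at an unadjusted p under 0.05, all higher in VHL (12.5% of all tested genes). Other settings of edgeR with the block called 1 with DESeq2 size factors (4.09% of all genes) and 1 with TMM on protein-coding genes (4.07%), CENPE in both. They called 4 of the 70 with protein-coding genes alone (CENPA, CENPE, HMMR and NCAPD2), where 7.17% of all genes tested were called. They called 5 with at least 20 counts in every library (these and DEPDC1), where 9.73% were. Each was higher in VHL. DESeq2 called 7, all higher, where it called 4.98% of all genes. The median of the 70 was 0.18, with 58 above 0, against the shares of 47% and 55.2% above. Of the 70, 35 were higher in VHL in both pairs, where 22.8% of all tested genes and 33.2% of the abundant protein-coding ones were. CENPA, the centromeric histone variant, named after its values were seen, had the smallest adjusted p of these, 0.0878, with 34.4 and 55.9 CPM in replicate 1 and 21.7 and 32.3 CPM in replicate 2. The mitotic median exceeded the replication median by 0.08 in these lists, against 0.33 in the members.

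E2F3, an E2F activator, was in the blocked edgeR fit the single gene called among the 19 other E2F, pocket protein and MuvB regulators. It was also the single one among all 133 other pathway genes, in a fit that called 3.1% of all tested genes. Other settings also called the mitotic genes named above. DESeq2 called 11 of the 133, where it called 4.98% of all genes, with TFDP1 and RBL1 beside E2F3 among the regulators. E2F3 was at 13.4 (VEC) and 22.0 CPM (VHL) in replicate 1, against 47.8 and 89.5 CPM in replicate 2. The VHL library was the higher one in each pair, and the groups overlapped because all replicate 2 values exceeded all replicate 1 values. E2F3 rose in VHL by 0.82 ± 0.22 on the log2 scale, 1.76-fold with 95% bounds of 1.31 and 2.37 (edgeR adjusted p = 0.0107). The pairs gave 0.71 and 0.90, and every blocked alternative called it, with adjusted p-values between 1.47e-07 and 0.0324. Without the block its change was 0.87 ± 1.14 (adjusted p = 0.999991). Leaving out single libraries without the block moved E2F3 between -0.54 and 2.09, with a change of sign, in unequal mixtures of the labelled RNA types. RefSeq lists 2 separate starts for E2F3 among its promoters, and counts per symbol do not separate the transcripts. The pocket protein genes RB1, RBL1 and RBL2 had changes of 0.23, 0.45 and -0.17 and did not pass in the blocked edgeR fit.

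**Figure D4:**
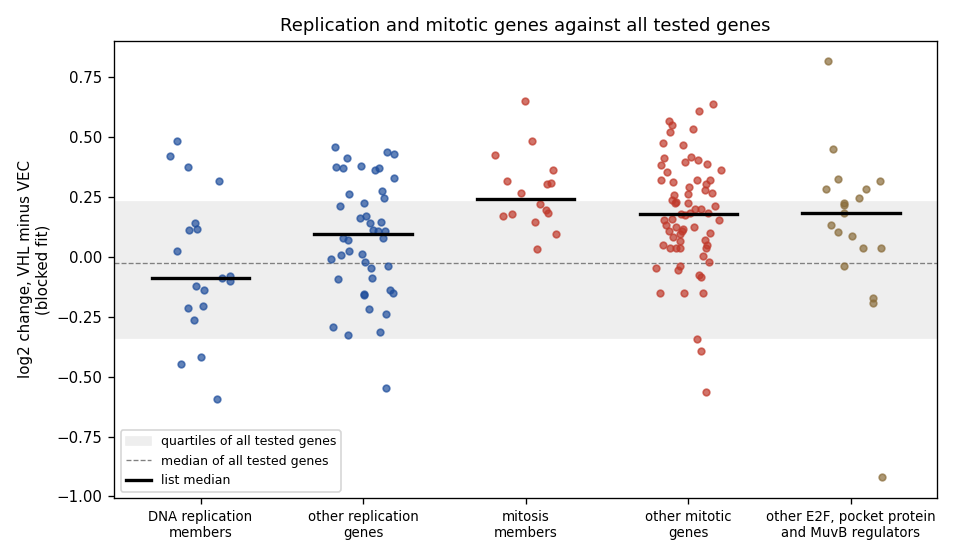
Blocked log2 change, VHL minus VEC, of every gene in 5 lists, with list medians as black bars over the quartiles (-0.34 and 0.23) and median of all tested genes. Both mitotic lists and the other replication genes have medians above 0, the replication members a median of -0.09, and E2F3 is the highest point of the last list.

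Levels of the members depended on the replicate number. Of the 40 genes, 32 had fewer CPM in replicate 2 than in replicate 1 in both groups, and 6 had more in both (MCM6, CDT1, RRM2, TYMS, E2F2 and AURKA). Of the 9175 abundant protein-coding genes, 5150 had fewer in both groups and 3146 had more in both. The 40 genes together took 0.985% (VEC) and 1.13% (VHL) of counts in replicate 1 and 0.407% and 0.467% in replicate 2, a larger share in VHL in both pairs. Pseudogenes took 1.40% and 2.09% of counts in replicate 1 and 31.3% and 25% in replicate 2, so CPM of replicate 2 are shares of a different mixture. Protein-coding genes took 96.1% (VEC) and 95.6% (VHL) in replicate 1 and 65.7% and 71.9% in replicate 2. The mixture thus also differed between VEC and VHL within replicate 2. Its part in the larger share of the 40 genes in VHL, a share of all counts, was not tested.

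Pseudogenes of the members themselves also differed between the replicates. Of 17 pseudogene symbols formed from 10 member symbols, the counts summed to 343 in VEC and 266 in VHL of replicate 1, and to 8990 and 7432 in replicate 2. PCNAP3 had 6 and 5 counts in replicate 1 and 2580 and 1769 in replicate 2. CDC20P1 had 243 and 189 counts and then 1556 and 1255, which was 42.4% (VEC) and 40.8% (VHL) of the sum of CDC20 and its pseudogene in replicate 2, against 5.73% and 4.42% in replicate 1. RRM2P3 went from 0 and 2 counts to 1022 and 1001, and AURKAP1 from 69 and 52 to 1913 and 1953. Pseudogenes share sequence with their parents and how multi-mapping reads were counted is not given, so values of these 10 genes are uncertain. Adding the pseudogene counts to the parents, an alternative chosen after the data were seen, left all 40 members uncalled, with blocked values of -0.21 for PCNA and 0.11 for CDC20 in place of -0.20 and 0.15.

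**Figure D5:**
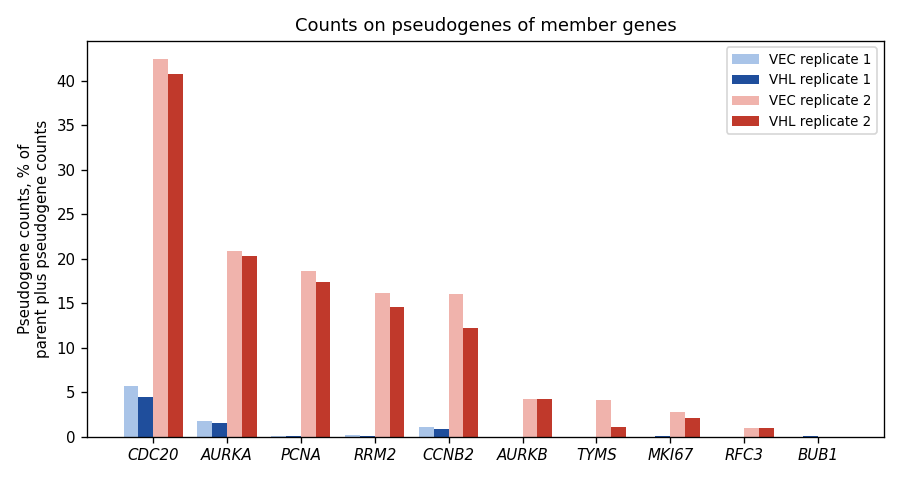
Counts on pseudogenes as a percentage of parent plus pseudogene counts, for the 10 members with a pseudogene symbol, in the 4 libraries. CDC20, AURKA, PCNA, RRM2 and CCNB2 have bars between 12.2% and 42.4% in replicate 2, and between 0.0600% and 5.73% in VEC of replicate 1.

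Overlap with other genes limits some members further. By RefSeq positions 19 of the 40 overlap another annotated gene, and whether the counting used strand is not given. TYMS overlaps the noncoding TYMSOS (86 to 123 counts) and ENOSF1. ENOSF1 was at 78.0 (VEC) and 52.2 CPM (VHL) in replicate 1 and at 52.3 and 42.6 CPM in replicate 2, lower in VHL in each pair, with pair values of -0.58 and -0.30 (blocked change -0.44 ± 0.21, edgeR adjusted p = 0.350). It had more counts than TYMS in all 4 libraries. PCNA overlaps PCNA-AS1, which had 0 counts in all libraries. CCNE2, at 205 (VEC) and 187 counts (VHL) in replicate 2, overlaps the pseudogene LOC100128548, at 5651 and 1924 there. In replicate 1 that pseudogene had 12 and 9 counts, and its blocked change was -1.22 ± 0.28 (edgeR adjusted p = 0.00138). PLK1 overlaps ERN2, with 4 and 7 counts in replicate 1 and 614 and 544 in replicate 2. POLA1 overlaps the pseudogene EEF1B2P3, with 53 and 28 counts, then 3820 and 2624. What these overlaps add to the member values was not tested. GINS2 overlaps GSE1, with 559 and 558 counts in replicate 1 and 1980 and 1938 in replicate 2.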

How the data were processed

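RNA values were raw counts per gene symbol, made by the authors from sorted hg19 alignments per the file headers. The submitters' processing notes name featureCounts and HOMER without versions or roles. The aligner, annotation, strand and multi-mapping settings are not given in the sources used here. The analysis used edgeR 4.0.16 under R 4.3.3 (filterByExpr by group, TMM, quasi-likelihood F test, two-sided, Benjamini-Hochberg over 24417 genes, threshold 0.05). The replicate number was a term of the model because the labels tie it to the RNA type, total or polyA. Same-numbered libraries deviated from their group means together (r = 0.983, 21673 genes), and on log2 CPM the 2 VEC libraries correlated across genes at r = 0.502 and VEC with VHL of replicate 1 at r = 0.991. Each SE is the size of the log2 change over the root of its F statistic. For pair values the log2 CPM used a prior count of 2. The alternatives included DESeq2 1.42.0, other scaling factors and filters, no block, and leaving out libraries. Gene classes, overlaps and promoters came from RefSeq on GRCh38.p14, with a class for 97.9% of symbols. Total counts of 16230291 to 50027348 limit the genes of few counts most.

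Members and lists were chosen with earlier results of these data known. Values by library are given for MKI67, PCNA and the 2 highest and 2 lowest members of each role, and for genes called. Other genes singled out were chosen after their values were seen. H3K27ac tables were not used, as their rows carry no gene name or start.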

Additional observations from a re-analysis of the deposited data

How the results depend on the processing

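Adding pseudogene counts to their parents was an alternative chosen after the data were seen, and it called 0 members and 757 genes. The count of called members depended on the setting. It was 0 in the blocked edgeR fit, 0 with no replicate block and 0 with no filter. It was 1 (BUB1) with DESeq2 size factors in edgeR or with TMM on protein-coding genes, and 2 (GINS2 and BUB1, so 1 replication and 1 mitosis member) with protein-coding genes alone or with at least 20 counts in every library. It was 7 in the DESeq2 Wald test, 3 of replication and 4 of mitosis. All genes called numbered 756 in the blocked fit, 0 with no replicate block, 1181 with at least 20 counts in every library and 1215 in DESeq2. The settings with protein-coding genes alone and at least 20 counts tested fewer genes (13916 and 12141); otherwise the cause was not tested. The median of all genes moved by less than 0.1 under each other scaling.

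Signs near 0 turned under other scalings. MCM4 went to -0.011 with DESeq2 size factors, -0.00054 with TMM on protein-coding genes, -0.00054 with protein-coding genes alone and -0.011 in DESeq2. CCNE2 went to -0.019, -0.0084, -0.0083 and -0.019 in the same order, and FOXM1 to -0.0025 with DESeq2 size factors.

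Leaving out a library leaves 1 pair in the blocked fit and no test. The lone pairs gave mitosis medians of 0.22 and 0.40 and replication medians of -0.03 and -0.08. Without the block, leaving out each library in turn compares unequal mixtures of the labelled RNA types. The arm left with 1 library is assumed to vary like the other. It called 0 genes each time. Over both kinds of omission the replication median ran from -0.80 to 0.69, the mitosis median from -0.23 to 0.89, and the replication minus mitosis median from -0.57 to -0.20, below 0 each time. Replication members above 0 ran from 5 to 15 and mitosis members above 0 from 5 to 14. 
Single genes whose sign turned in some omission had these ranges of log2 change. Values ran for MCM2 from -1.74 to 0.85, MCM3 from -1.01 to 0.81, MCM5 from -1.38 to 1.19, MCM7 from -1.67 to 1.39, CDC6 from -0.89 to 0.74, CDT1 from -0.54 to 0.89, CDC45 from -0.82 to 0.57, PCNA from -0.58 to 0.14 and RFC4 from -1.12 to 0.69. Values ran for RRM2 from -0.12 to 1.15, TK1 from -1.21 to 0.18, E2F1 from -0.53 to 0.46, E2F2 from -0.37 to 1.3, AURKA from -0.031 to 0.23, FOXM1 from -0.18 to 0.28, MCM4 from -0.52 to 0.53, POLA1 from -0.80 to 1.06 and RRM1 from -0.42 to 0.78. Values ran for CCNE1 from -0.31 to 1.19, CCNE2 from -0.78 to 0.82, CCNA2 from -0.50 to 1.10, CCNB1 from -0.58 to 1.00, CCNB2 from -0.25 to 0.70, CDC20 from -1.29 to 1.51, PLK1 from -0.25 to 0.62, AURKB from -0.56 to 0.77 and TTK from -0.39 to 1.09. Values ran for TOP2A from -0.032 to 1.07, BIRC5 from -0.33 to 1.31, KIF11 from -0.0012 to 0.78, CENPF from -0.74 to 1.38, RFC3 from -0.0075 to 0.70, TYMS from -0.78 to 0.39, CDK1 from -0.10 to 0.78, BUB1B from -0.067 to 0.74 and E2F3 from -0.54 to 2.09. MKI67 ran from -0.022 (the replicate 2 pair alone) to 0.52. Members whose sign held in each omission were BUB1 from 0.25 to 1.14, GINS2 from -1.17 to -0.049, GINS1 from 0.20 to 0.70 and MCM6 from 0.12 to 0.59.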
